A study of Mus musculus with 58 samples.

Results

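The Bardet-Biedl genes examined here were 10 genes of ciliary transport, taken by symbol from a table of 52459 gene symbols: Bbs1, Bbs2, Bbs4, Bbs5, Bbs7, Ttc8, Bbs9, Arl6, Bbs10 and Bbs12. All 10 were found, and all 10 passed the filter on low counts, so none was dropped. They were followed in single retinas of male mice 4 months old over 6 Zeitgeber times (ZT, hours after lights on), ZT1, ZT5, ZT9, ZT13, ZT17 and ZT21, under a light/dark cycle with lights off at ZT12. The diabetic mice were heterozygous for Ins2Akita on the C57BL/6 background, an insulin 2 mutation that causes misfolding of insulin, loss of beta cells and high blood glucose, and the controls were their wild-type littermates. Control retinas gave 30 libraries, with 5, 6, 5, 5, 5 and 4 at the 6 time points in order, and diabetic retinas gave 28, with 5, 5, 5, 4, 4 and 5.

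Photoreceptors hold their opsin and phototransduction proteins in an outer segment, which is a modified primary cilium joined to the cell body by a narrow connecting cilium. The BBSome, a coat-like complex built from BBS proteins, rides on intraflagellar transport (IFT) trains and carries membrane proteins out of the cilium. Inherited loss of a BBS gene causes Bardet-Biedl syndrome, in which photoreceptors degenerate and proteins that belong in the inner segment accumulate in the outer segment. Bbs2, Bbs7 and Bbs9 encode beta-propeller subunits of the core, Bbs1 the subunit that contacts the GTPase, Bbs4 and Ttc8 (BBS8) subunits with tetratricopeptide repeats, and Bbs5 a subunit that binds phosphoinositides. Arl6 (BBS3) is the small GTPase that brings the complex to membranes, and Bbs10 and Bbs12 encode chaperonin-like proteins that assemble the core together with the TRiC chaperonin.

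Depth ranged from 7773117 to 19929725 counted reads per control library and from 8588878 to 22147398 per diabetic library. Summed rod markers lay between 33235 and 51674 CPM (counts per 1000000 counts of the library) in every library, and the lowest value belonged to diabetic replicate 5 of ZT13. In 4 libraries, control replicates 1 and 3 of ZT17, diabetic replicate 3 of ZT17 and control replicate 4 of ZT9, GC-rich transcripts were shifted up by 0.36 to 0.48 log2 units per 10 points of GC content, against -0.25 to 0.20 in the others. Crystallin and other lens markers summed to between 1867 and 2935 CPM in 3 control libraries, replicate 6 of ZT1, replicate 2 of ZT21 and replicate 5 of ZT17, and to at most 69.0 in the others. The tests of the members between genotypes, between night and day and for rhythm were also run without those 4 and without those 3 libraries. The study calls its replicates biological, but the labels do not tie each retina to a mouse, so p-values measure the spread between libraries, part of which may be technical, and in whole retina fewer cells of a type and less RNA per cell cannot be told apart.

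The 10 genes lie on 8 chromosomes in Gencode M21 on GRCm38. Bbs1 is at chr19:4886878-4906628, Bbs2 at chr8:94067954-94098928, Bbs4 at chr9:59321990-59353508, Bbs5 at chr2:69647171-69667571 and Bbs7 at chr3:36573142-36613477. Ttc8 is at chr12:98920574-98983238, Bbs9 at chr9:22475715-22888280, Arl6 at chr16:59612949-59639391, Bbs10 at chr10:111298679-111301727 and Bbs12 at chr3:37312554-37321453. Exons of Bbs4 shared 194 bases with Adpgk on the other strand, those of Bbs12 shared 32 with Cetn4 on the other strand and 32 with Gm43439 on the same strand, and those of Arl6 shared 55 with 4930547E14Rik. The strand and overlap settings of the counting are not given in the sources used here. How reads in these stretches were counted is therefore not known. Mean counts were 1637 for Bbs4 against 355 for Adpgk and 429 for Bbs12 against 71.0 for Cetn4.

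Promoter windows are shown for the 4 members on which the results below turn most: Bbs1 and Bbs7, which had the smallest p-values for a difference in rhythm between the genotypes, Ttc8, which was called rhythmic in both, and Bbs10, which was lower in diabetic retinas. Each runs from 160 bases before the RefSeq start to 30 bases from it on GRCm38.p6, 5′ to 3′, and capitals mark any match to the motifs listed after the sequences.
Bbs1, chr19:4906598-4906787, minus strand: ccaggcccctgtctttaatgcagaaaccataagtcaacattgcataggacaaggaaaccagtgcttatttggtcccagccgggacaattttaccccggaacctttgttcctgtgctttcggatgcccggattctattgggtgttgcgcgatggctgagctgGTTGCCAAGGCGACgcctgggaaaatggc
Bbs7, chr3:36613360-36613549, minus strand: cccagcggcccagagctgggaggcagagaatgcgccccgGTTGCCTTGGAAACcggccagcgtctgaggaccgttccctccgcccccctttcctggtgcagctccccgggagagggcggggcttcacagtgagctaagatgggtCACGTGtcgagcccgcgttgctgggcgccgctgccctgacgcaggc
Ttc8, chr12:98920414-98920603, plus strand: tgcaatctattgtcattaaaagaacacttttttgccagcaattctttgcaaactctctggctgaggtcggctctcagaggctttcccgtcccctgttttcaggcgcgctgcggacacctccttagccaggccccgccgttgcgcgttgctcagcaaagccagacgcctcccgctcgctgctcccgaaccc
Bbs10, chr10:111298519-111298708, plus strand: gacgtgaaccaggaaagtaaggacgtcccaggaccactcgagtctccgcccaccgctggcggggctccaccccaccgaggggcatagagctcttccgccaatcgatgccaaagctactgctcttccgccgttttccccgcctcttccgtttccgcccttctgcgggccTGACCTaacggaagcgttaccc
The motifs searched on both strands were a palindromic X-box-like motif GTNNCCNNGGNNAC, the kind of site that RFX factors bind at ciliary genes, the E-box CACGTG of clock factors, the photoreceptor motif TAATCC of CRX, the D-box TTANNTAA and the ROR half-site AGGTCA. None of these overlapped another in the windows shown. The X-box-like motif was in 618 of 32851 promoters of 300 bases (250 before and 50 after the start), or 1.88%, and in 3 of the 10 members. In Bbs1 it began at base 1 counted from the start base as 0, in Bbs7 at base -121, and in Bbs4 at base 23, as GTCGCCCGGGAAAC at chr9:59353472-59353485. The E-box was in 7.15% of promoters and in Bbs7 at base -16, and the CRX motif was in 7.06% of promoters and in Bbs1 at base -197, outside the window shown. The ROR half-site was in 16.3% of promoters and in Bbs4 and Bbs10, where it is the match in capitals. The D-box was in 6.00% of promoters and in none of the 11 promoters of the members, which include 2 starts of Arl6.

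All members were expressed at moderate levels. Per kb of exon and 1000000 reads, the mean level over 58 libraries was 37.5 ± 5.49 (SD) for Arl6, 33.9 ± 3.15 for Bbs7, 33.1 ± 2.24 for Bbs9 and 28.9 ± 2.16 for Bbs2. It was 26.5 ± 2.94 for Ttc8, 21.2 ± 3.03 for Bbs5, 18.2 ± 1.78 for Bbs4 and 13.8 ± 0.921 for Bbs1. The chaperonin-like genes were lowest, with 11.9 ± 2.23 for Bbs12 and 3.79 ± 0.665 for Bbs10. Bbs7 was above Bbs9 in 34 of 58 libraries and Bbs1 above Bbs12 in 41, so these neighbours in the order were not separated, while Bbs9 was above Bbs2, Ttc8 above Bbs5 and Bbs12 above Bbs10 in all 58. Bbs10 had 58 to 252 raw reads per library, the fewest of the members, and Bbs9 had 1697 to 4599. Within a group of libraries the median coefficient of variation was 4.83% for Bbs9, 5.24% for Bbs2 and 5.71% for Bbs1, and rose to 12.2% for Arl6 and 15.3% for Bbs12.

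**Figure D1:**
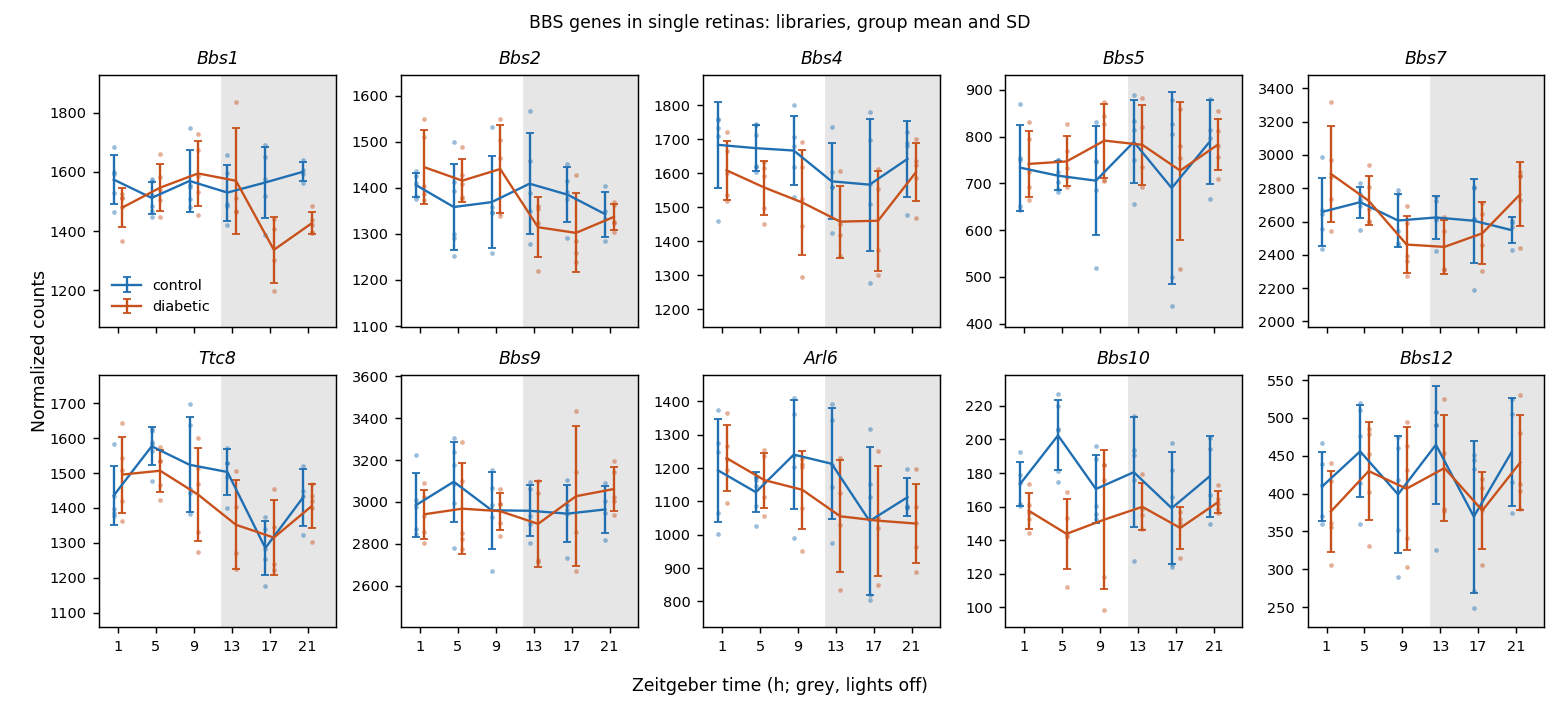
Normalized counts (DESeq2 size factors) of the 10 genes against Zeitgeber time, 1 panel per gene with its own axis that does not start at 0; points are libraries, lines join group means and bars are SD, with control in blue, diabetic in orange and the dark phase in grey. Diabetic Bbs10 means lie below the control means at all 6 time points, and the diabetic mean of Bbs1 is lowest at ZT17.

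Averaged over the day, diabetes went with a change in 1 member, the assembly factor Bbs10, whose transcript was lower in diabetic retinas. Control retinas had 178.2 ± 26.7 (SD, n = 30) normalized counts and diabetic retinas had 153.9 ± 20.6 (SD, n = 28), with a lowest, median and highest library of 124.3, 180.2 and 227.2 in control and 98.2, 156.4 and 184.9 in diabetic retinas. The libraries of the genotypes overlapped over much of their range, and the diabetic mean was below the control mean at all 6 time points. The log2 difference was -0.21 (SE 0.05), a fall of 13.3%, with an adjusted p of 0.0247 by edgeR's quasi-likelihood test over 19120 genes. In the same test 2.93% of all genes were called in either direction and 1.40% were called lower, against 1 of the 10 members.

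The Bbs10 call was lost without the 3 lens-rich control libraries. The log2 difference was then -0.20, of nearly the same size, with an adjusted p of 0.0521. Without the 4 GC-shifted libraries it was -0.24 with an adjusted p of 0.00444, and over the other alternatives the adjusted p lay between 0.00512 and 0.0410. All 8 rod markers and all 7 cone markers also had estimates below 0 in diabetic retinas, with medians of -0.08 and -0.12 on the log2 scale, and 1 rod and 3 cone markers were called lower. All 6 bipolar and all 6 microglia markers were below 0 too, with medians of -0.08 and -0.07 and 1 microglia marker, Cx3cr1, called lower, and all 7 ganglion cell markers were above 0, with a median of 0.06. All 3 astrocyte markers were above 0 as well, with a median of 0.18, and all 3 expressed lens markers were below 0, with a median of -1.51 and 1, Cryaa, called lower. Summed rod markers ranged from 39111 to 51674 CPM in control and from 33235 to 49309 in diabetic libraries, and summed cone markers from 822 to 1037 and from 744 to 996. No rod or cone marker was at 0 throughout, while 1 of the 8 lens markers was. The marker tests were run with all libraries, and the part of these cell types in the Bbs10 result was not tested.

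The estimated fall of Bbs10 was largest at ZT5, in the middle of the day. The 6 control libraries at ZT5 had 227.2, 206.0, 205.4, 181.4, 220.1 and 174.6 normalized counts, and the 5 diabetic libraries had 143.0, 153.1, 168.8, 141.9 and 112.1. Every diabetic library was below every control library. The log2 difference was -0.50 (SE 0.13), with an adjusted p of 0.142 by edgeR and of 0.0512 by DESeq2. At the other time points the log2 difference of Bbs10 lay between -0.11 at ZT17 and -0.16 at ZT13, with no unadjusted p under 0.05 in edgeR with all libraries, and a change of the difference with time was not found (unadjusted p of 0.245 for the interaction in the fit of 12 groups). The 2 lowest control libraries at ZT17, with 125.6 and 124.3 normalized counts, were the 2 GC-shifted ones. Without the GC-shifted libraries the log2 difference at ZT17 was -0.32 with an unadjusted p of 0.0441 and an adjusted p of 0.681, and without the lens-rich ones it was -0.02.

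No other member was called over all time points. Control retinas had 1636 ± 122 (SD, n = 30) normalized counts of Bbs4, a subunit with tetratricopeptide repeats, and diabetic retinas had 1539 ± 119 (SD, n = 28), and its diabetic mean was also below the control mean at all 6 time points. Its log2 difference was -0.09 (SE 0.03), with an adjusted p of 0.0931, and of 0.0364 without the 4 GC-shifted libraries. Bbs1 had a log2 difference of -0.06 (SE 0.03) with an adjusted p of 0.277. For the core subunits Bbs2, Bbs7 and Bbs9 the log2 difference was 0.00, 0.01 and -0.01, and 95% intervals ran from -0.05 to 0.05, from -0.05 to 0.07 and from -0.05 to 0.04. Ttc8 had -0.04, Arl6 -0.05, Bbs12 -0.05 and Bbs5 0.05, none with an adjusted p under 0.6. Estimates were below 0 for 7 of the 10 members with a median of -0.04, against 9500 of 19120 genes and a median of 0.00.

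**Figure D2:**
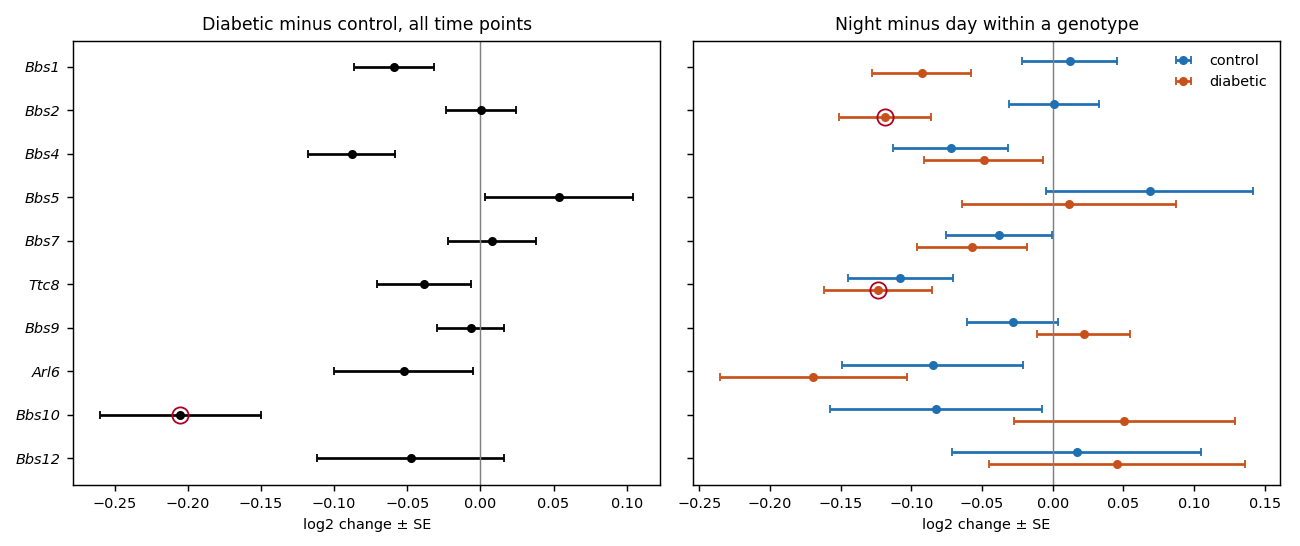
Log2 change with its SE (horizontal axis) for each of the 10 genes: left, diabetic minus control over all time points (black); right, night (ZT13, ZT17 and ZT21) minus day (ZT1, ZT5 and ZT9) in control (blue) and diabetic (orange) retinas, with red rings at an adjusted p under 0.05 in edgeR. Bbs10 at -0.21 is ringed on the left, and diabetic Bbs2 and Ttc8 are ringed on the right.

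Compared at single time points, no member was called between the genotypes by edgeR at any of the 6, in tests that called 0.0105% of genes (ZT1), 0.0209% (ZT5), 0.00523% (ZT9), 0% (ZT13), 0.157% (ZT17) and 0% (ZT21). At an unadjusted p under 0.05, edgeR had 0 members at ZT1 and 1 at each of the other time points: Bbs10 at ZT5, Bbs4 at ZT9, Ttc8 at ZT13 and Bbs1 at ZT17 and ZT21. Over all 19120 genes this held for 1052, 1164, 856, 843, 1679 and 880 genes at the 6 time points in order. DESeq2 called 1 member, Bbs1 at ZT17, where it called 90 of 15408 genes, and 0 members at the other 5 time points. At ZT13 and ZT21, where edgeR called 0 genes, DESeq2 called 1 and 2.

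Over the 6 time points the log2 difference of the core subunits lay between -0.10 and 0.07 for Bbs2, -0.10 and 0.12 for Bbs7 and -0.06 and 0.05 for Bbs9. The range was -0.14 to -0.03 for Bbs4, -0.15 to 0.06 for Ttc8, -0.01 to 0.16 for Bbs5 and -0.20 to 0.04 for Arl6. The chaperonin-like Bbs12 lay between -0.12 and 0.03. Of these, the estimates of Bbs4 were below 0 at all 6 time points and those of the others were on both sides of 0.

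Bbs1, the subunit through which Arl6 recruits the BBSome, had its smallest unadjusted p-values at the last time points of the night, with lower values in diabetic retinas. At ZT17 the control libraries had 1691.8, 1518.4, 1648.6, 1387.0 and 1574.8 normalized counts and the diabetic libraries 1440.6, 1406.5, 1302.8 and 1196.1. Of the control libraries 1 lay within the diabetic range and the other 4 lay above it. The log2 difference was -0.23 (SE 0.06), with an adjusted p of 0.11 by edgeR, 0.0395 by DESeq2 and 0.00877 with the GC and length trend of each library removed. Without the 4 GC-shifted libraries, 3 of which are at ZT17, the difference was -0.19 and the adjusted p 0.435. At ZT21 the control libraries had 1593.6, 1562.3, 1605.4 and 1640.4 and the diabetic libraries 1418.9, 1394.6, 1485.4, 1436.9 and 1396.3. These groups did not overlap, and the log2 difference was -0.16 (SE 0.06) with an adjusted p of 0.850 by edgeR, in a test with 880 genes at an unadjusted p under 0.05.

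The daily rhythm was read within each genotype with a permutation rank test against waveforms of 24 h, and a gene was rhythmic at an unadjusted p under 0.05 with its highest library more than 25% above its lowest. In control retinas 1 of the 10 members was rhythmic, Ttc8, where 21.8% of all expressed genes were. In diabetic retinas 5 of 10 were rhythmic, the subunits Bbs1, Bbs2, Bbs7 and Ttc8 and the GTPase Arl6, where 23.9% of genes were. Ttc8 was rhythmic in both, as 11.9% of genes were. All 5 had their acrophase, the peak time of a fitted cosine, in the light phase, between ZT0.478 and ZT7.79. Over all genes, 2199 of the 4565 rhythmic in diabetic retinas peaked in that phase. None of Bbs4, Bbs5, Bbs9 and the chaperonin-like Bbs10 and Bbs12 was called in either genotype. With the GC and length trend removed, the rhythmic member in control retinas was Bbs5 (permutation p of 0.0133) in place of Ttc8, and Bbs4 was called in diabetic retinas by a 24 h cosine in edgeR (unadjusted p of 0.0347) and with a replicate block (0.0143). Amplitudes were small, at most 8.88% of the fitted mean. With the fold taken between the highest and the lowest time point mean in place of single libraries, no member was called in either genotype. That rule called 2532 (control) and 2710 (diabetic) of 19120 genes.

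**Figure D3:**
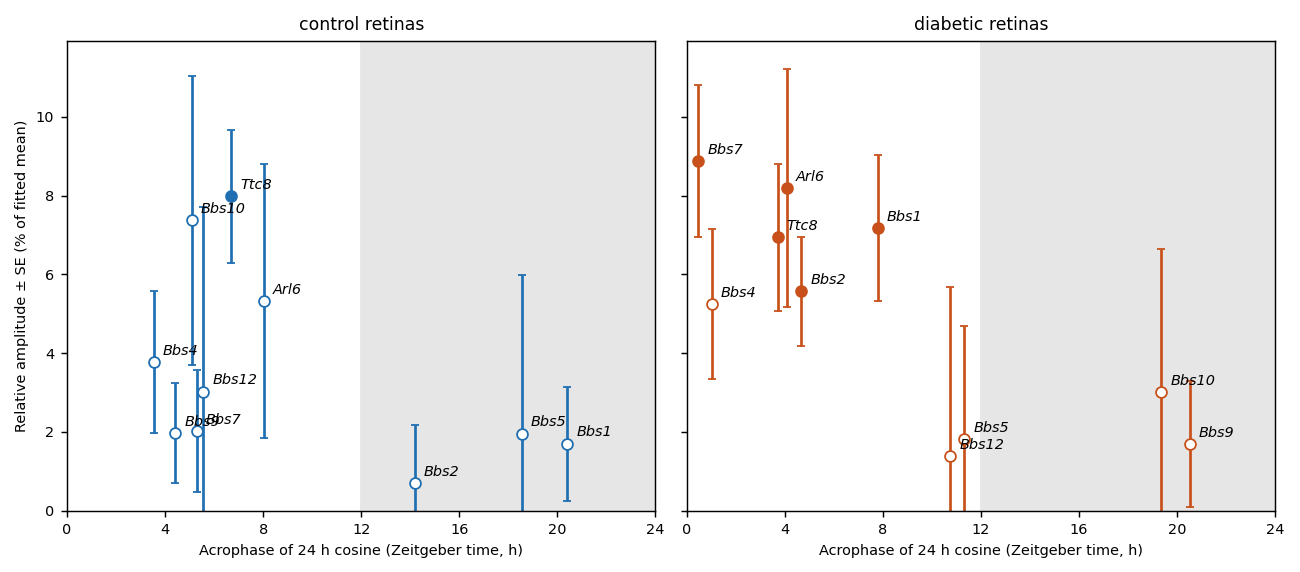
Relative amplitude with its SE (vertical axis, percent of the fitted mean) against acrophase (horizontal axis, Zeitgeber time in hours) of a 24 h cosine for each gene in control (left) and diabetic (right) retinas; filled points were called rhythmic and the dark phase is grey. Ttc8 is the filled point in control, and 5 filled points lie in the light phase in diabetic retinas.

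Ttc8 had its lowest group mean at ZT17 in both genotypes. In control retinas at ZT5 its 6 libraries had 1622.0, 1626.5, 1477.9, 1584.1, 1588.2 and 1563.5 normalized counts, and at ZT17 its 5 libraries had 1253.5, 1339.1, 1176.4, 1375.0 and 1281.7. The ZT17 libraries were all below those of ZT5. Replicates 1 and 3 of ZT17, at 1253.5 and 1176.4, were the lowest and are GC-shifted libraries. Without the GC-shifted libraries Ttc8 was still called rhythmic in control retinas. Its relative amplitude was 7.98% (SE 1.69) with an acrophase at ZT6.71 (SE 0.815 h) and a permutation p of 0.00191, 0.0292 after Benjamini-Hochberg adjustment over all genes. The call was present in each of the 30 fits that left out a control library and without each time point. With the GC and length trend removed the p was 0.0036, and the fold of 1.246 missed the threshold.

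In diabetic retinas Ttc8 peaked earlier by estimate, at ZT3.71 (SE 0.987 h), with a relative amplitude of 6.94% (SE 1.86), a permutation p of 0.00813 and an adjusted p of 0.0662. The difference in its rhythm between genotypes had an unadjusted p of 0.0855 in edgeR. Its diabetic libraries at ZT17 had 1239.3, 1220.8, 1346.2 and 1454.2 normalized counts, against 1466.6, 1575.3, 1423.8, 1534.4 and 1534.1 at ZT5. Of the ZT17 libraries 1 lay within the ZT5 range and the others below it. The lowest of them, at 1220.8, was the GC-shifted replicate 3. Without the GC-shifted libraries Ttc8 was still called rhythmic, and without ZT17 the permutation p was 0.0582.

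Bbs1 and Bbs7 were called rhythmic in diabetic and not in control retinas. The relative amplitude of Bbs1 was 1.70% (SE 1.45) in control, with a permutation p of 0.348, and 7.17% (SE 1.85) in diabetic retinas, with a p of 4.54e-04, an adjusted p of 0.0107 and an acrophase at ZT7.79 (SE 1.02 h). Its diabetic group means were highest at ZT9, 1595 ± 109 (SD, n = 5), and lowest at ZT17, 1337 ± 110 (SD, n = 4), while its control means at all time points lay between 1512 and 1600. For Bbs7 the relative amplitude was 2.02% (SE 1.54) in control, with a permutation p of 0.501, and 8.88% (SE 1.93) in diabetic retinas, with a p of 0.00165, an adjusted p of 0.0241 and an acrophase near lights on, at ZT0.478 (SE 0.820 h). Its 5 diabetic libraries at ZT1 had 2544.1, 2735.2, 2866.5, 2969.6 and 3317.2 normalized counts and the 4 at ZT13 had 2313.3, 2540.8, 2629.5 and 2306.3. The range of ZT13 overlapped that of ZT1 at its top, and the mean was 2887 ± 289 (SD, n = 5) at ZT1 against 2448 ± 163 (SD, n = 4) at ZT13.

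The core subunit Bbs2 had a relative amplitude of 0.697% (SE 1.47) in control and 5.57% (SE 1.39) in diabetic retinas, with permutation p-values of 0.875 and 0.00232, an adjusted p of 0.0295 in the latter and an acrophase at ZT4.67 (SE 0.929 h). Arl6 had 5.33% (SE 3.48) in control and 8.19% (SE 3.03) in diabetic retinas, with permutation p-values of 0.310 and 0.0392 and an adjusted p of 0.178 in the latter. The calls of Bbs1, Bbs2 and Bbs7 were present in each of the 28 fits without a diabetic library and without each time point, and that of Arl6 in 16 of the 28. Arl6 lost its call without the GC-shifted diabetic replicate 3 of ZT17, with a p of 0.0886, with the GC and length trend removed, with a p of 0.274, and without ZT1, ZT5, ZT9 or ZT21, with p-values of 0.291, 0.123, 0.0546 and 0.121. Bbs4, with a relative amplitude of 5.24% (SE 1.90) in diabetic retinas, had a permutation p of 0.0675.

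Whether a rhythm differs between the genotypes was tested with the interaction of genotype with the cosine and sine in edgeR, since passing in one genotype and missing in the other is no test of a difference. No member passed, and neither did any other gene (0% of 19120 genes, with 638 at an unadjusted p under 0.05), and DESeq2's likelihood ratio test also called 0 genes. At an unadjusted p under 0.05 there were 3 of the 10 members, Bbs1 (p of 0.00284), Bbs7 (0.00570) and Bbs2 (0.0261), against 3.34% of all genes, and all had an adjusted p of 0.9999. The unadjusted p was 0.0855 for Ttc8, 0.167 for Bbs10, 0.318 for Arl6, 0.329 for Bbs9, 0.469 for Bbs4, 0.863 for Bbs5 and 0.873 for Bbs12. With the 12 groups in place of a cosine, the unadjusted p was 0.00869 for Bbs1, 0.0719 for Bbs7 and 0.135 for Bbs2. For Bbs1 it was from 4.71e-04 to 0.00525 over the 8 other alternatives with a cosine. The rhythms of these 3 genes in diabetic retinas were therefore not shown to differ from those in control retinas.

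Night and day levels were compared in the same fit of 12 groups. In diabetic retinas 2 of the 10 members, Bbs2 and Ttc8, fell in the night, where 13.9% of genes were called and 6.73% were called lower. Bbs2 had 1434 ± 71.9 (SD, n = 15) normalized counts by day and 1319 ± 58 (SD, n = 13) by night, with a lowest, median and highest library of 1339.4, 1407.9 and 1549.7 by day and 1220.4, 1323.8 and 1427.7 by night. The ranges overlapped, and the log2 change was -0.12 (SE 0.03) with an adjusted p of 0.00911. For Ttc8 the values were 1480 ± 103 (SD, n = 15) by day and 1361 ± 99.1 (SD, n = 13) by night, a log2 change of -0.12 (SE 0.04) with an adjusted p of 0.0210. Without diabetic replicate 3 of ZT17, a GC-shifted library, the adjusted p of Ttc8 was 0.0648, and without all 4 GC-shifted libraries Ttc8 was still called, at -0.11. By night in diabetic retinas 6 of 7 expressed pigment epithelium, 5 of 6 bipolar and 3 of 6 Muller glia markers were called higher. In control retinas 4, 5 and 1 were. Of 8 rod markers 2 were called lower by night in each genotype. The part of these cell types in the night changes was not tested.

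Arl6 and Bbs1 came next in diabetic retinas, with log2 changes of -0.17 (SE 0.07) and -0.09 (SE 0.03) and adjusted p-values of 0.0774 and 0.0672. Bbs1 was called lower by night with DESeq2 (adjusted p of 0.0450), with a replicate block (0.0451), without the GC-shifted libraries (0.0355) and with the GC and length trend removed (6.59e-04). In control retinas no member was called by edgeR, where 7.92% of genes were, and 1 member had an unadjusted p under 0.05, as had 4223 of 19120 genes. That was Ttc8, with 1516 ± 107 (SD, n = 16) by day and 1405 ± 119 (SD, n = 14) by night and a log2 change of -0.11 (SE 0.04). With the GC and length trend removed the change was -0.07 in control, with an adjusted p of 0.124, and -0.10 in diabetic retinas, where Ttc8 was still called. With the trend left in, the adjusted p of Ttc8 in control retinas was 0.0596 by edgeR and 0.0381 by DESeq2. In control retinas DESeq2 called no other member and 1665 of 18372 genes. The night change of Bbs2 in control retinas was 0.00, with a 95% interval from -0.06 to 0.06, and that of Bbs1 was 0.01, with an interval from -0.05 to 0.08. Arl6 had -0.08 in control retinas, with an adjusted p of 0.456. Bbs10, Bbs12, Bbs9, Bbs5, Bbs4 and Bbs7 had estimates from -0.08 to 0.07 in the 2 genotypes, with no adjusted p under 0.29, and with the GC and length trend removed Bbs5 had 0.14 in control retinas with an adjusted p of 0.0225.

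The members did not vary together in a single block across libraries. After subtracting the mean of each group, Pearson's r over 58 libraries was above 0 for 31 of the 45 pairs, with a median of 0.35 and a range from -0.60 (Bbs1 and Ttc8) to 0.73 (Bbs5 and Bbs12). Bbs1 was negatively related to each of the other 9. By the longest transcript of each gene, Bbs1 has the highest GC content of the members, 51.8%, and Bbs5 the lowest, 39.9%. Within groups the GC shift of a library had an r of 0.65 with Bbs1 and of -0.83 with Bbs5. With the GC and length trend of each library removed, the median r over the pairs was 0.05. An r above 0.3 both before and after that step was found for 6 pairs: Bbs7 and Ttc8 (0.63 and 0.56), Bbs10 and Bbs12 (0.66 and 0.50), Bbs2 and Bbs9 (0.35 and 0.48), Bbs4 and Arl6 (0.66 and 0.44), Bbs5 and Bbs7 (0.52 and 0.36), and Ttc8 and Bbs9 (0.43 and 0.31). The libraries share their scaling and depth, so these values are a description without a test.

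**Figure D4:**
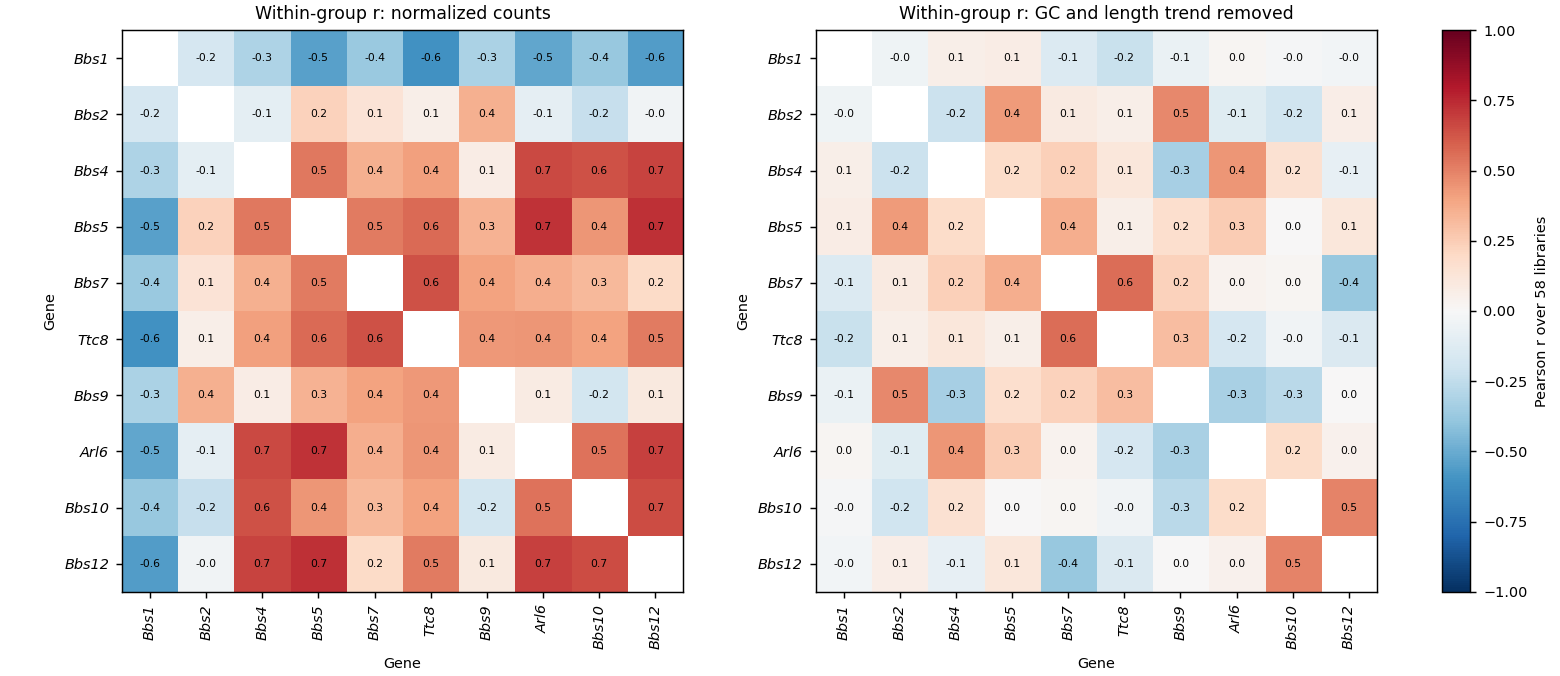
Pearson's r over 58 libraries between each pair of the 10 genes after group means were subtracted, from normalized counts (left) and with the GC and length trend of each library removed (right); the colour scale runs from -1 to 1. Bbs1 is negative with the other 9 genes on the left, and on the right the median over the 45 pairs is 0.05.

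The most like other member, by the same measure, was Bbs12 for Bbs4, Bbs5 and Bbs10, Ttc8 for Bbs7 and Bbs9, Bbs7 for Ttc8, Bbs5 for Arl6 and Bbs12, Bbs9 for Bbs2, and Bbs2 for Bbs1, with an r of -0.17. With the trend removed, r was -0.08 for Bbs4 with Bbs12, 0.11 for Bbs5 with Bbs12 and 0.26 for Arl6 with Bbs5. The mean of the standardized profiles of the 10 members over the 12 groups was lowest at ZT17 in both genotypes, at -0.77 in control and -1.14 in diabetic retinas. The control low did not hold without the 4 GC-shifted libraries, where ZT17 was at 0.45 (control) and -0.72 (diabetic), and the lowest diabetic value was -0.85, at ZT13. Without the lens-rich libraries ZT17 was at -0.97 and -1.09. With all libraries the highest was ZT5 in control, at 0.76, and ZT1 in diabetic retinas, at 0.27. The genes outside the list with the most similar profile over the 12 group means were Pex2 (r of 0.96), Elmod2 (0.96), Zfp760 (0.95), Gm10226 (0.95) and Sc5d (0.94), and over single libraries their r was from 0.69 to 0.81. These likenesses were computed with the GC-shifted libraries included.

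Other genes of the same transport machinery were followed by the same tests, with 2 genes, Ift27 and Ift172, in both the list of further BBS genes and that of IFT-B. Between the genotypes over all time points, none of 16 further BBS genes and BBSome regulators or 8 TRiC subunits was called. None of 18 IFT-B, 6 IFT-A and 6 IFT motor genes was called either. The same held for 9 carriers of lipidated and membrane cargo and 6 expressed RFX and FOXJ1 factors. In that test 2.93% of all genes were called. All 8 TRiC subunits, which work with Bbs10 and Bbs12, had estimates below 0, with a median of -0.03, and the one with the smallest p was Cct3, at -0.08 (SE 0.03) with an adjusted p of 0.182. Ift172, an IFT-B subunit, had a log2 difference of -0.07 (SE 0.03) with an adjusted p of 0.171, and Ttc21b, an IFT-A subunit, one of -0.06 (SE 0.03) with an adjusted p of 0.286. Kif3b, a kinesin-2 motor subunit, Arl2bp, which binds GTPases of the ARL family, and Rfx7 had 0.07, -0.04 and 0.09 with adjusted p-values of 0.247, 0.536 and 0.0849.

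Of 12 transcripts of rod outer segment proteins, the cargo that fills the photoreceptor cilium, 3 fell in diabetic retinas, where 1.40% of all genes were called lower, and all 12 had estimates below 0, with a median of -0.09. Over all genes 9500 of 19120 were below 0. Of the 12, 6 are also among the 8 rod markers, and the 8 rod, 7 cone and 6 bipolar markers were all below 0 in the same comparison. Rom1, a disc rim protein, fell from 20540 ± 2120 (SD, n = 30) normalized counts to 18690 ± 1840 (SD, n = 28), a log2 difference of -0.14 (SE 0.04) with an adjusted p of 0.0300. Abca4, the retinoid transporter of the discs, had -0.09 (SE 0.02) with an adjusted p of 0.0340. Pde6a, a phosphodiesterase subunit and the 1 called rod marker, had -0.10 (SE 0.03) with an adjusted p of 0.0443. These 3 calls were not repeated without the GC-shifted or the lens-rich libraries. No TRiC subunit or IFT motor was called between night and day, and neither of the 2 shared genes was, while 1 of them, Ift172, was rhythmic in diabetic retinas and is counted in both lists. By night 2 of 18 IFT-B genes, 1 of 6 IFT-A genes and 2 of the 16 further BBS genes and regulators were called lower in diabetic retinas, and 1, 1 and 0 in control retinas, against 6.73% of all genes in diabetic retinas and 738 of 19120 in control retinas. Of the 16 BBS genes and regulators 1 was called higher by night in each genotype, where 1364 genes (diabetic) and 776 genes (control) were. In each genotype 1 of 9 carriers, 1 of 6 RFX and FOXJ1 factors and 1 of 12 rod outer segment transcripts were called lower by night, and 1 of the latter was called higher in control. The rhythmic IFT-B genes numbered 6 (control) and 8 (diabetic), all with an acrophase in the light phase, as was the case for 2120 of 4172 rhythmic genes in control and 2199 of 4565 in diabetic retinas, and of the 16 BBS genes and regulators 2 and 4 were rhythmic. Against 21.8% and 23.9% of all genes, the rhythmic counts in control and diabetic retinas were 2 and 0 of 8 TRiC subunits, 4 and 3 of 6 IFT-A genes, 2 and 2 of 6 IFT motors, 1 and 2 of 9 carriers, 2 and 2 of 6 RFX and FOXJ1 factors, and 4 and 4 of 12 rod outer segment transcripts. An acrophase in the light phase was found for 1 of 2 and 3 of 4 of the rhythmic BBS genes and regulators, 3 of 4 and 2 of 3 IFT-A genes, 1 of 2 and 2 of 2 IFT motors, 1 of 1 and 2 of 2 carriers, 1 of 2 and 1 of 2 RFX and FOXJ1 factors, 1 of 4 and 2 of 4 rod outer segment transcripts, and 0 of 2 TRiC subunits in control.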

How the data were processed

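RNA was measured in 58 single-retina libraries, prepared with ribosomal RNA depletion and sequenced in paired reads. The deposited values were raw counts per gene symbol, which the authors made with STAR 2.7.4a on GRCm38.p5 and HTSeq 0.11.1, per the submitters' processing notes and methods. Depth was 7773117 to 22147398 counts per library, and Bbs10 had the fewest reads of the members, as few as 58. Genes with a median over 4 DESeq2-normalized counts were kept (19120 of 52459). Genotype effects over all libraries, at each time point (12 groups) and between night and day, and genotype by 24 h cosine and sine terms, were tested with edgeR 4.0.16 (quasi-likelihood, TMM), with Benjamini-Hochberg adjustment over all genes at 0.05. DESeq2 1.42.0 was an alternative. Rhythms were tested per genotype with a re-implemented empirical JTK rank test (30 waveforms, 1000000 null draws, unadjusted p under 0.05 and fold over 1.25 between libraries). Scripts were tested on simulated data.

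The members and gene lists were chosen with earlier results of these data known. The rule for named genes took all 10 members in every comparison, given over the single time points by their range where not described. Per list, up to 3 called genes with the smallest p in the genotype comparison, or the 1 with the smallest p, were named, and likeness was Pearson's r on log2 (normalized count + 1). Alternatives were other scalings, filters, tools, rhythm rules, a replicate block, removal of each library's GC and length trend, and leaving out each library or time point. Leaving out the GC-shifted libraries (over 0.3 log2 per 10 GC points) and the lens-rich ones (over 1000 lens marker CPM) was added after seeing the data. Sequences and promoters were from RefSeq on GRCm38.p6 and gene models from Gencode M21, while the authors counted on M15.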

Additional observations from a re-analysis of the deposited data

Results flagged for a closer look

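In 7 of 120 groups of 4 to 6 libraries, 1 library stood apart from the others of its group by Dixon's criterion, which chance alone meets in about 1 in 20 groups. Bbs1 was low in diabetic replicate 5 of ZT1, at 1367.1 normalized counts against 1480.5 to 1525.9 in the others. It was high in control replicate 4 of ZT9, a GC-shifted library, at 1748.2 against 1482.8 to 1556.7, and in diabetic replicate 5 of ZT13, the library with the lowest rod marker sum, at 1836.7 against 1463.2 to 1512.7. Bbs4 was low in control replicate 4 of ZT1, at 1460.6 against 1708.6 to 1759.0. Ttc8 was high in control replicate 3 of ZT1, at 1583.5 against 1377.4 to 1435.4. Arl6 was high in control replicate 1 of ZT21, at 1197.9 against 1080.3 to 1087.6, and Bbs12 was low in control replicate 4 of ZT13, at 325.5 against 490.7 to 508.4. These fell in 7 different libraries.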

How the results depend on the processing

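Of 116 counts of members under other settings, leaving single libraries out aside, 106 stayed within 1.5 times the reported count and 10 moved. Members called over all time points were 2 without the GC-shifted libraries and 0 without the lens-rich ones. Between night and day, control retinas gave 1 with DESeq2 (Ttc8) and 1 with the GC and length trend removed (Bbs5), and diabetic retinas gave 1 with no filter (Bbs2). At ZT17 both DESeq2 and removal of the GC and length trend gave 1 (Bbs1). Rhythmic members were 3 in diabetic retinas with adjusted p-values, and 0 in control and 0 in diabetic retinas with the fold of time point means. Leaving out 1 library gave 1 to 2 members over all time points (2 without control replicate 3 of ZT17), 0 to 1 by night in control, 1 to 4 by night in diabetic (1 without diabetic replicate 3 of ZT17, 4 without replicate 1), and 4 to 6 rhythmic in diabetic retinas. The cause of these shifts was not tested.

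Estimates near 0 changed sign. Bbs2 over all time points was -0.005252 with a replicate block, -0.001453 with the GC and length trend removed, -0.006433 without the lens-rich libraries and -0.00485 as the mean of the 6 time points, and Bbs7 was -0.0004166 with the trend removed. By night in control, Bbs1 was -0.009092 with the trend removed, Bbs2 -0.00432 without the GC-shifted and Bbs12 -0.03557 without the lens-rich libraries, and in diabetic retinas Bbs4 was 0.007223 with the trend removed. Leaving out 1 library, Bbs2, Bbs7 and Bbs9 over all time points ranged from -0.003572 to 0.00956, -0.003713 to 0.01755 and -0.01276 to 0.0007696, Bbs2 and Bbs12 by night in control from -0.0121 to 0.01543 and -0.01359 to 0.05461, and Bbs5 by night in diabetic from -0.01935 to 0.05893.

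Same-numbered libraries of the genotypes had a median r of 0.27, against -0.07 for 114 differently numbered pairs, a hint of a shared factor. Of the same-numbered pairs 20 of 26 were over 0.1 (lowest -0.463). No label gives a shared batch, so the numbers were not taken to pair the samples. The main tests therefore leave any such factor in. With a replicate block, members called were 1 over all time points, 0 and 3 by night in control and diabetic retinas (adding Bbs1), 1 and 6 rhythmic (adding Bbs4), and 0 at each time point. Genes called over all time points were 561, and 896 with the block, 911 with the trend removed and 873 as the mean of the time points. Over the alternatives there were 1 to 14 at ZT1 (2 reported), 3 to 24 at ZT5 (4), 0 to 6 at ZT9 (1), 0 to 2 at ZT13 (0), 14 to 120 at ZT17 (30) and 0 to 4 at ZT21 (0), and 3 with a differing rhythm with no filter (0). Rhythmic genes were 4172 in control and 4565 in diabetic retinas, 1573 and 1874 with adjusted p-values, 2532 and 2710 with the fold of means, and 2528 in control without ZT17. Bbs10 had the fewest reads, 58 to 252 per library.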
